A study of Mus musculus with 21 samples.

Results

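The clustered protocadherins are cell-adhesion proteins encoded in 3 neighbouring gene arrays, alpha, beta and gamma, and 57 of the 16318 genes measured in the brains of 21 SAMP8 mice belong to them. The members are the rows whose symbol begins with the alpha, beta or gamma stem followed by a number. They were chosen by this name rule with earlier results of these data known. They comprise 14 alpha genes (12 alternate isoforms and the C-type isoforms Pcdhac1 and Pcdhac2), 21 beta genes, and 22 gamma genes (12 of type A, 7 of type B and the C-type isoforms Pcdhgc3, Pcdhgc4 and Pcdhgc5). SAMP8 is a senescence-accelerated mouse strain, and every mouse in both groups was of this strain. From 4 months of age, 9 mice (3 female and 6 male) received HsTX1[R14A], a peptide blocker of a voltage-gated potassium channel that microglia carry, at 1 mg/kg under the skin on alternate days over 8 weeks. The control group of 12 mice (6 female and 6 male) received phosphate-buffered saline (PBS). All mice were 6 months old when brains were taken, and RNA of the whole brain was sequenced with 1 library per mouse, so the values average over all brain regions and cell types.

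Clustered protocadherins sit on the surface of neurons and bind their own kind on the neighbouring cell. In each alpha, beta or gamma array, a neuron switches on a few alternate promoters, largely at random, and the resulting combination of proteins gives the cell an identity that lets its branches recognise and avoid each other. The C-type isoforms are chosen in a more regular way and are expressed more broadly. An alpha or gamma mRNA joins 1 variable first exon, which encodes the extracellular part, to constant exons shared by the whole cluster, whereas each beta gene is a separate gene with no constant exons.

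All members lie on the plus strand of chromosome 18 of GRCm38, with alpha at 36930184 to 37187661, beta at 37294812 to 37524479 and gamma at 37661793 to 37841873. In the GENCODE annotation of that build, 2860 bases are in the exons of every alpha member and 2116 bases in those of every gamma member, and 0 bases are common to all beta members. The sharing bears on how well the genes can be told apart. Of the 31-base words in a member's coding transcript, the median share found in no other gene was 36.4% for alpha, 52.6% for gamma and 87.9% for beta. The deposited estimated counts were within 0.01 of a whole number for 1.70% of alpha values and 2.16% of gamma values, against 70.3% of beta values and 90.5% of all values in the table, so nearly all alpha and gamma values had been divided among genes by the quantification. A value of an alpha or gamma isoform is therefore uncertain beyond the spread between mice, and the sum over a cluster is less so.

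Names needed care for 4 rows. The table writes Pcdhga8 for 2 gene IDs, and ENSMUSG00000023036 is Pcdhgc4 in the annotation, with its own first exon at 37815079, so it is called Pcdhgc4 here. The table writes Pcdha11 for 2 IDs as well. ENSMUSG00000007440, whose first exon starts at 37005203 where RefSeq places Pcdha10, is called Pcdha10, and ENSMUSG00000102206 is called Pcdha11. Pcdhgb8 is annotated as a polymorphic pseudogene. Pcdhb1 was not analysed here.

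Library totals ran from 14917174 to 47613792 counts, and the members together took 6046 to 47152 of them. Genes of the sex chromosomes matched the labelled sex in 21 of 21 libraries. The 5 neuronal markers summed to 4322 to 6707 CPM (counts scaled to the library size, with TMM factors) in PBS mice and 4925 to 7422 in HsTX1[R14A] mice, and Acta1, the actin of skeletal muscle, stayed between 4.14 and 10.2 CPM. The libraries also differed in how gene levels were related to transcript length, and what set this difference was not tested. For each library, the deviation of log2 CPM from a gene's mean over the mice was regressed on log2 transcript length over all genes, and the slope is called the length slope below. It ran from -0.385 to 0.147 in PBS mice and from -0.142 to 0.236 in HsTX1[R14A] mice, with means of -0.0765 ± 0.161 (SD, n = 12) and 0.102 ± 0.119 (SD, n = 9). In addition, the table's headers use 2 forms of name, SAMP8 for 10 PBS and 5 HsTX1[R14A] mice and SAMP for 2 and 4 mice. What the 2 forms stand for is not stated.

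In the PBS mice, the C-type isoforms took 69.5% of the gamma counts on average. They took 46.8% of the alpha counts, where the alternate isoforms took 53.2%. Per kilobase of coding transcript, Pcdhgc4 was the highest of the 57 members at 25.7 ± 3.21 CPM (SD, n = 12), followed by Pcdhgc3 at 15.8 ± 5.24, Pcdhgc5 at 13.6 ± 7.53 and Pcdhac2 at 9.65 ± 1.602. Pcdhgc3 and Pcdhgc5 differed by less than their spread. The next members in the order, Pcdhga11 and Pcdhb7, were at 3.04 ± 1.46 and 3.002 ± 0.619 CPM per kilobase, and they too differed by less than their spread. Pcdhac1 ranked among the alternate isoforms at 1.12 CPM per kilobase. Median levels of the alternate genes per kilobase were 1.05 CPM in alpha, 1.09 in beta and 1.29 in gamma. Each array spanned a range, from 0.140 (Pcdha8) to 2.72 (Pcdha4) in alpha, from 0.513 (Pcdhb4) to 3.002 (Pcdhb7) in beta and from 0.676 (Pcdhgb4) to 3.04 (Pcdhga11) in gamma. The order along the chromosome had a Spearman correlation with the level per kilobase of 0.329 over 12 alternate alpha genes, -0.0390 over 21 beta genes and 0.291 over 19 alternate gamma genes. These are descriptions across neighbouring genes that share libraries.

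Spread between mice also differed by array. The coefficient of variation of CPM over the 12 PBS mice had a median of 47.3% in the alternate gamma genes, 34.0% in the alternate alpha genes and 22.4% in the beta genes. In the 9 HsTX1[R14A] mice the medians were 35.0%, 26.9% and 19.6%. The gamma genes varied together. Over the PBS mice, log2 CPM of 2 gamma members had a median Pearson correlation of 0.918 (231 pairs), compared with 0.567 within beta (210 pairs), 0.241 within alpha (91 pairs), 0.680 between beta and gamma (462 pairs) and 0.460 between alpha and gamma (308 pairs). Members of 1 cluster share libraries and, in alpha and gamma, exons. Pcdhgc4 was set apart from this common movement, with a median correlation of 0.0162 with the 21 other gamma members and a highest one of 0.157, whereas Pcdhgc5 had a median of 0.925 and Pcdhgc3 of 0.901.

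The study asked what HsTX1[R14A] changed in the brain relative to PBS. Each gene was tested with edgeR's quasi-likelihood test with sex as a covariate, and the Benjamini-Hochberg adjustment ran over all 16285 genes tested, with 0.05 as the threshold. All 57 members passed the filter on low counts. In the gamma cluster 19 of 22 genes rose with HsTX1[R14A], in the beta cluster 11 of 21 and in the alpha cluster 4 of 14, and 0 members fell. Over all genes, 15.5% were called higher and 16.1% lower. The median log2 fold change was 0.87 in gamma, 0.31 in beta and 0.31 in alpha, and -0.01 over all genes tested. Fitted values were above 0 for 55 of the 57 members, the other two being Pcdhgc4 and Pcdha4. For every one of the 57 members the CPM ranges of the groups overlapped. The share of all genes with such overlap was not counted. Whether a difference came from more or fewer cells of a type or from more or less RNA per cell cannot be told apart in whole-brain RNA.

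**Figure D1:**
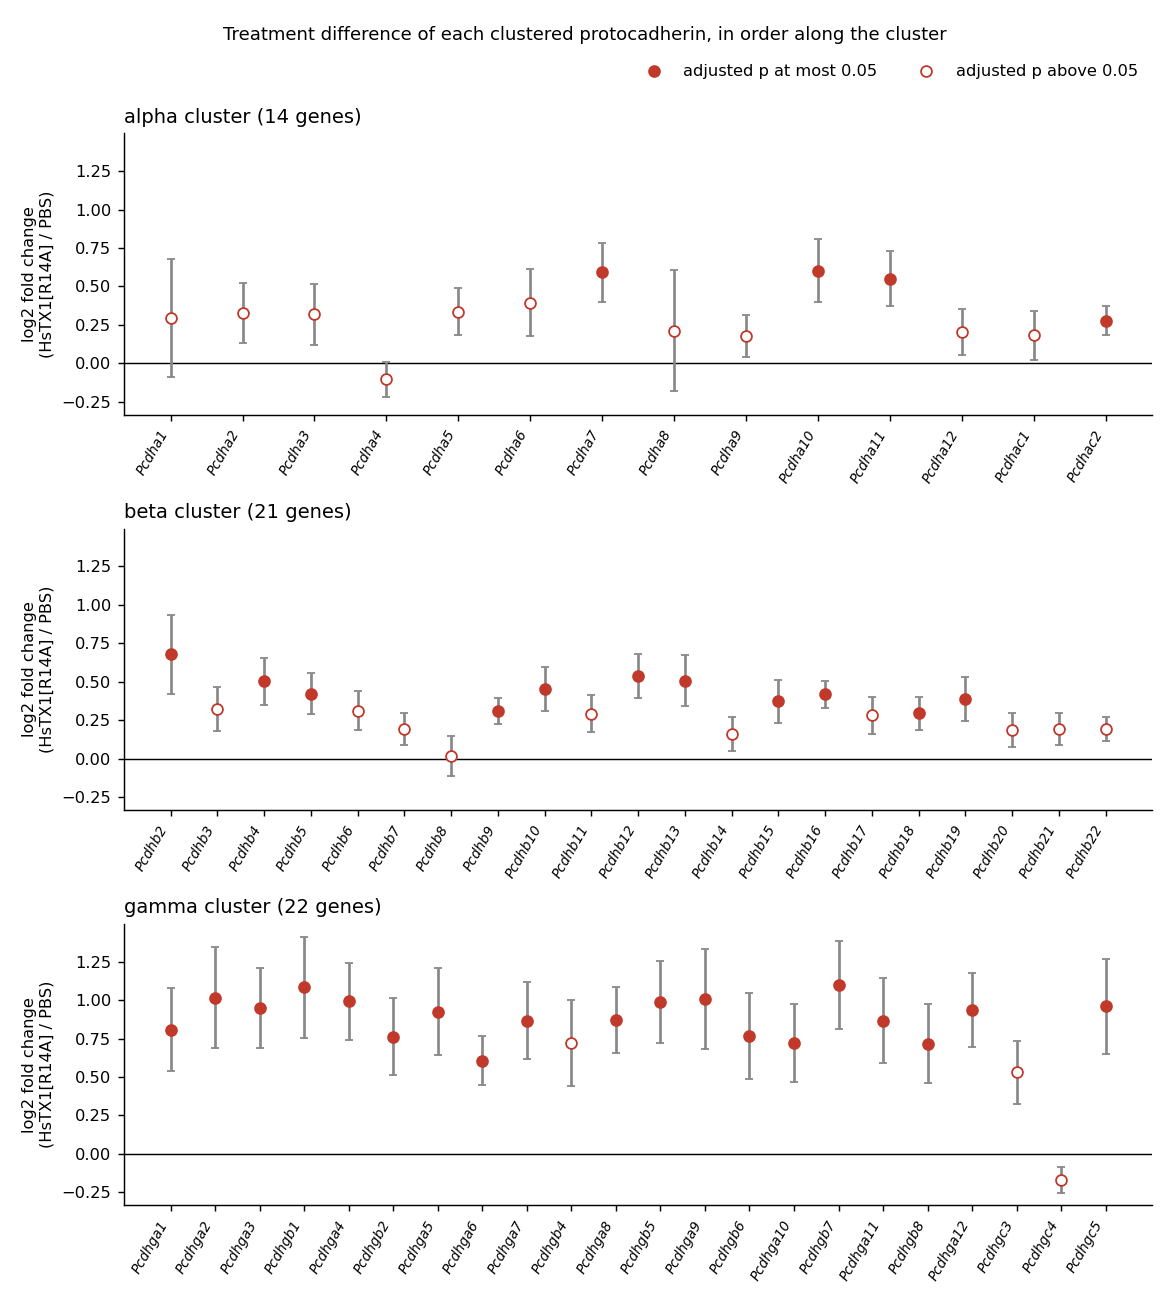
Log2 fold change of HsTX1[R14A] relative to PBS (y axis) for each member in its order along the cluster (x axis), from edgeR with sex in the model. Bars are the standard error, filled points have an adjusted p of at most 0.05, and 19 of 22 gamma, 11 of 21 beta and 4 of 14 alpha points are filled, with Pcdhgc4 below 0.

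The counts of calls rested on single mice and on the way libraries were adjusted. Without PBS mouse 90, whose length slope was -0.337, gamma, beta and alpha calls were 10, 3 and 0. Without PBS mouse 103, whose slope was the lowest of all at -0.385, they were 20, 8 and 4. Without HsTX1[R14A] mouse 98, whose slope was the highest at 0.236, they were 12, 4 and 0, and without mouse 81, with a slope of 0.200, they were 10, 6 and 1. Beta calls were also 6 without HsTX1[R14A] mouse 72 and 7 without HsTX1[R14A] mouse 88 or PBS mouse 73, and alpha calls were 2 without HsTX1[R14A] mouse 71. Of the 18 called members named by rule, 7 (Pcdhb12, Pcdhb16, Pcdhga4, Pcdhga6, Pcdhga8, Pcdhgb1 and Pcdhgb7) were called in all 21 fits that left out 1 mouse. The other 11 lost their calls without HsTX1[R14A] mouse 81 and without PBS mouse 90, and 9 of them without HsTX1[R14A] mouse 98. With the length slope added as a covariate, 0 of 57 members and 0 of 16303 genes were called by edgeR (3 members and 1865 genes had an unadjusted p under 0.05), and the median log2 fold change was -0.02 in gamma, 0.07 in beta and 0.06 in alpha. Within the 15 mice of the SAMP8 name form 0 members were called and the medians were 0.92, 0.26 and 0.21, and within the 6 mice of the SAMP form 0 were called and the medians were 0.34, 0.27 and 0.20. At an unadjusted p under 0.05 there were 29 members in the first and 3 in the second. Of all genes tested, 5797 of 16296 and 507 of 15910 were under that limit. The part of the length slope in the treatment difference was not tested, since the slope is higher on average in the HsTX1[R14A] group and is computed from the same libraries.

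The summed level of each cluster, which does not depend on how reads of shared exons were divided inside it, is a value with no test. It can still depend on reads shared with genes that are not members. Such genes hold 44.6% of the 31-base words of Pcdha4 and 13.1% of those of Pcdhgc3. For Pcdhac2 the share was 0% and for Pcdhb22 it was 1.88%. Gamma members summed to 225 CPM in the lowest, 381 in the median and 588 in the highest PBS mouse, and to 307, 584 and 701 CPM in HsTX1[R14A] mice. For beta the values were 98.0, 118 and 154 CPM in PBS mice and 110, 147 and 181 CPM in HsTX1[R14A] mice. For alpha they were 106, 130 and 164 CPM in PBS mice and 130, 153 and 205 CPM in HsTX1[R14A] mice. In each cluster 8 of 9 HsTX1[R14A] mice exceeded the PBS median and the groups overlapped. The sex-adjusted difference of log2 sums was 0.57 for gamma, 0.29 for beta and 0.28 for alpha. Within the SAMP8 name form it was 0.58, 0.22 and 0.21, and within the SAMP form it was 0.22, 0.20 and 0.19. With the length slope as a covariate, added after the data had been seen, it was 0.05, 0.06 and 0.08. The ratio of beta to alpha sums was 0.920 ± 0.0694 (SD, n = 12) in PBS and 0.922 ± 0.0540 (SD, n = 9) in HsTX1[R14A] mice. The ratio of gamma to beta was 3.14 ± 0.506 and 3.75 ± 0.533 in the same groups.

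**Figure D2:**
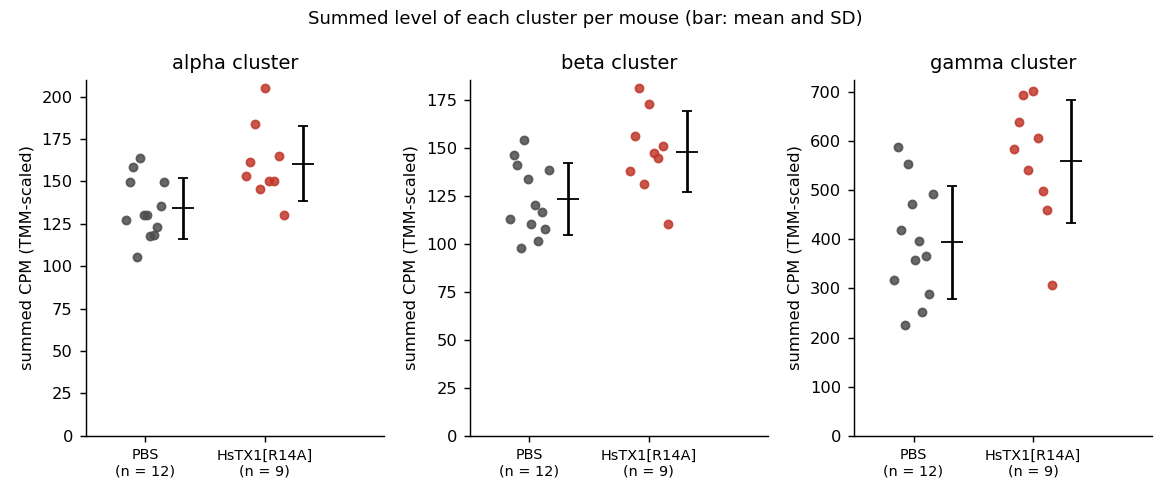
Summed CPM, scaled by TMM (y axis, from 0), of the alpha, beta and gamma members in each PBS mouse (n = 12) and HsTX1[R14A] mouse (n = 9), with 1 point per mouse and the mean and SD as a bar. In each cluster 8 of 9 HsTX1[R14A] mice exceed the PBS median, and the groups overlap.

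The 3 gamma C-type isoforms, which made up 69.5% ± 5.95 (SD, n = 12) of the gamma counts in PBS mice, did not move alike. Pcdhgc5, an isoform known to bind a subunit of the GABA-A receptor, ranged from 14.98 CPM through a median of 60.2 to 131 CPM in PBS mice and from 41.4 through 108 to 185 CPM in HsTX1[R14A] mice. Of the HsTX1[R14A] mice, 8 of 9 were above the PBS median, and the log2 fold change was 0.96 ± 0.31 (standard error, adjusted p = 0.0278, edgeR). Pcdhgc3, an isoform that acts on dendrite branching and on Wnt signalling, ranged from 33.5 through 83.3 to 112 CPM in PBS mice and from 48.1 through 117 to 131 CPM in HsTX1[R14A] mice, with a log2 fold change of 0.53 ± 0.20 that missed the threshold (adjusted p = 0.0506). The same HsTX1[R14A] mouse, mouse 93, was lowest in both isoforms. Pcdhgc4, the isoform needed for the survival of many neurons during development, ranged from 98.7 through 130 to 154 CPM in PBS mice and from 93.0 through 118 to 141 CPM in HsTX1[R14A] mice. Only 1 of 9 HsTX1[R14A] mice exceeded the PBS median of Pcdhgc4, namely mouse 93 at 140.9 CPM, and the log2 fold change was -0.17 ± 0.08 (adjusted p = 0.124).

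Of the alpha C-types, Pcdhac2, which serotonergic neurons need to space their axons, rose modestly. Its level was 42.7 CPM in the lowest, 54.0 in the median and 73.8 in the highest PBS mouse and 60.1, 63.3 and 86.4 CPM in HsTX1[R14A] mice. All 9 HsTX1[R14A] mice exceeded the PBS median, and the log2 fold change was 0.28 ± 0.09 (adjusted p = 0.0300). Pcdhac1 was at 3.77, 5.86 and 8.74 CPM in the lowest, median and highest PBS mouse and at 5.06, 6.84 and 9.72 CPM in HsTX1[R14A] mice, with a log2 fold change of 0.18 ± 0.16 (adjusted p = 0.381). After removal of a trend on length and GC content from every library, Pcdhac2 was no longer called (log2 fold change 0.07, adjusted p = 0.555) and Pcdhgc4 was called lower (log2 fold change -0.43, adjusted p = 0.0421).

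**Figure D3:**
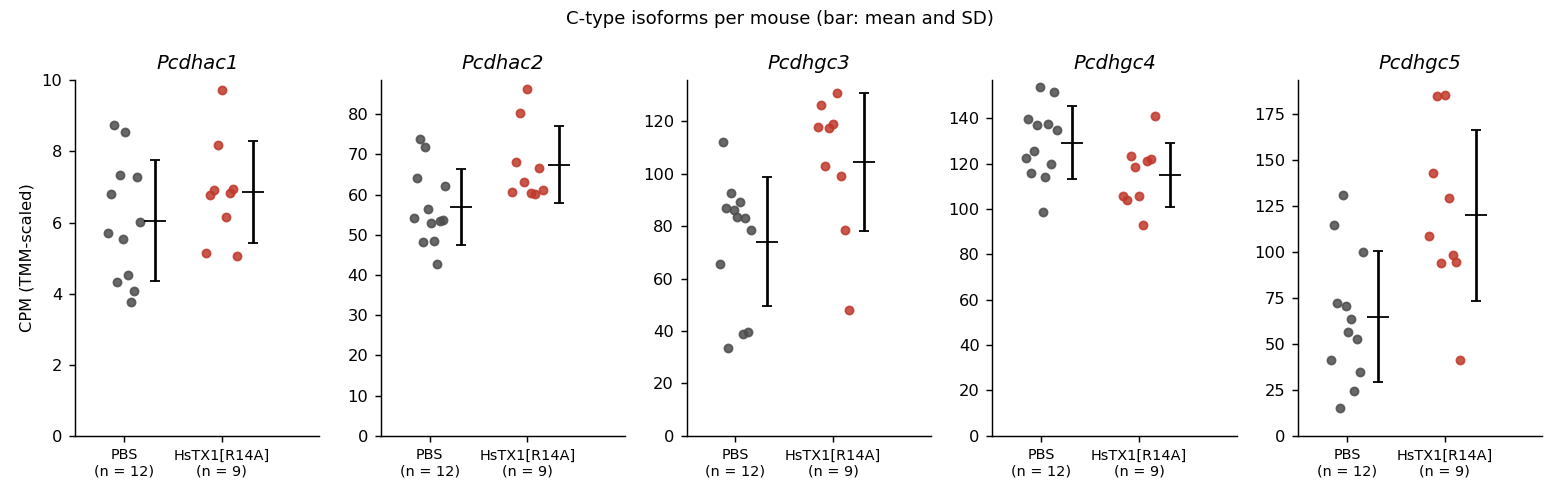
CPM, scaled by TMM (y axis, from 0), of the 5 C-type isoforms in each PBS mouse (n = 12) and HsTX1[R14A] mouse (n = 9), with 1 point per mouse and the mean and SD as a bar. Pcdhgc5 has the widest range (14.98 to 185 CPM), and Pcdhgc4 lies lower on average in HsTX1[R14A] mice.

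In the make-up of the gamma counts, the share of Pcdhgc4 ranged most widely between mice, though its level did not. The coefficient of variation of CPM over the 12 PBS mice was 12.5% for Pcdhgc4, 33.2% for Pcdhgc3 and 55.2% for Pcdhgc5. A share also moves when the other gamma members move. The Pcdhgc4 share of the gamma counts was 23.8% in the lowest, 30.7% in the median and 55.7% in the highest PBS mouse. In HsTX1[R14A] mice it was 15.1%, 18.1% and 45.8%, with 1 of 9 above the PBS median. The share of Pcdhgc5 was 6.64%, 15.4% and 23.7% in PBS mice and 13.5%, 20.5% and 26.6% in HsTX1[R14A] mice, and that of Pcdhgc3 was 18.7% ± 3.33 and 18.6% ± 2.54 on average. Type A isoforms took 20.7% ± 3.81 of the gamma counts in PBS and 25.95% ± 3.39 in HsTX1[R14A] mice, and type B isoforms 9.87% ± 2.18 and 12.4% ± 2.49. There were 0.502 ± 0.261 counts of Pcdhgc5 per count of Pcdhgc4 in PBS mice and 1.08 ± 0.458 in HsTX1[R14A] mice. Of the alpha counts, Pcdhac2 took 42.3% ± 2.78 and 42.1% ± 2.39 and the alternate isoforms 53.2% ± 3.08 and 53.7% ± 2.54.

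**Figure D4:**
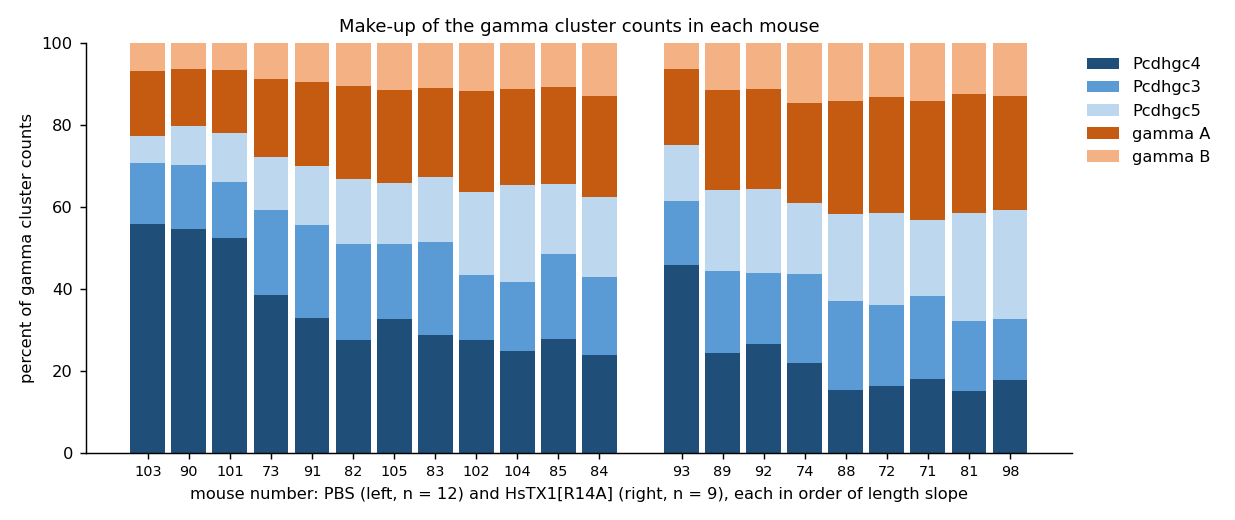
Share of the gamma cluster counts (percent, y axis) taken by Pcdhgc4, Pcdhgc3, Pcdhgc5, the type A and the type B isoforms in each mouse (x axis), PBS on the left and HsTX1[R14A] on the right, each ordered by the length slope of its library. The Pcdhgc4 share falls from 55.7% to 23.8% across the PBS mice and from 45.8% to 17.8% across the HsTX1[R14A] mice as the slope rises.

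These shares moved with the length slope inside each treatment group. In the 12 PBS mice, the Pcdhgc4 share had a Pearson r of -0.941 with the slope (permutation p = 1e-05, the smallest that 100000 resamples can give, adjusted p = 4e-05) and a Spearman rho of -0.923 (permutation p = 6e-05, adjusted p = 0.00014). Without the 2 mice whose slopes were farthest from the median, r was -0.853, and within the 10 PBS mice of the SAMP8 name form it was -0.937. In the 9 HsTX1[R14A] mice r was -0.932 (exact permutation p = 0.000744, adjusted p = 0.000992), rho was -0.783 (exact permutation p = 0.0172, adjusted p = 0.0230), and r was -0.841 without the 2 farthest mice. The Pcdhgc5 share rose with the slope, with r = 0.892 (permutation p = 7e-05, adjusted p = 0.00014) and rho = 0.937 (permutation p = 7e-05, adjusted p = 0.00014) in PBS mice. In HsTX1[R14A] mice r was 0.803 (exact permutation p = 0.00807, adjusted p = 0.00807) and rho was 0.750 (exact permutation p = 0.0255, adjusted p = 0.0255). Without the 2 farthest mice these r were 0.769 and 0.624, and within the PBS mice of the SAMP8 form r was 0.986. The name forms of the HsTX1[R14A] group hold 5 and 4 mice, too few for a value. Tests were two-sided and adjusted over these 4 relations, which were chosen after the data had been seen.

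**Figure D5:**
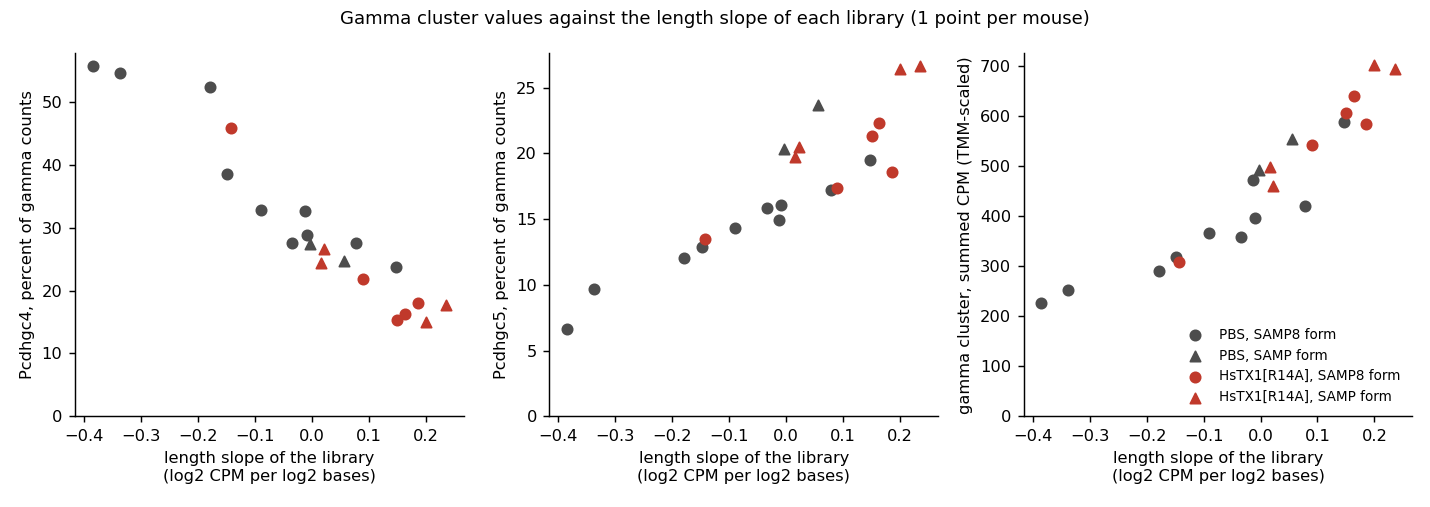
Pcdhgc4 share and Pcdhgc5 share of the gamma counts (percent) and summed gamma CPM (y axes) against the length slope of the library (x axis, log2 CPM per log2 bases), 1 point per mouse, with colour for treatment and shape for the form of the library name. The Pcdhgc4 share falls and the Pcdhgc5 share and the gamma sum rise with the slope in both groups.

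With treatment and sex in the model, 21 of 22 gamma, 17 of 21 beta and 7 of 14 alpha genes rose with the length slope (edgeR, same threshold), and 0 fell. Of all 16303 genes, 31.8% rose with it. Pcdhgc4 was the gamma gene that was not called (adjusted p = 0.211). The median coding transcript had 5350 bases in alpha, 4722 in gamma and 3718 in beta. The median GC content of the transcripts was 53.0% in gamma, 47.3% in alpha and 45.6% in beta.

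Among the type A gamma genes 12 of 12 rose, against 15.5% of all genes, and log2 fold changes ran from 0.61 to 1.02. Pcdhga11, the highest of them, was at 3.41, 13.3 and 25.6 CPM in the lowest, median and highest PBS mouse and at 8.90, 26.9 and 34.4 CPM in HsTX1[R14A] mice, with a log2 fold change of 0.87 ± 0.27 (adjusted p = 0.0268). Pcdhga2 had the largest change (1.02 ± 0.33, adjusted p = 0.0279), from a PBS median of 4.65 to an HsTX1[R14A] median of 10.2 CPM. The pair with the next highest levels, Pcdhga6 and Pcdhga4, had log2 fold changes of 0.61 and 0.99. Pcdhga9 changed by 1.008, and Pcdhga8, with the smallest adjusted p of the type (0.0168), changed by 0.87 ± 0.22. As first-exon variants, these isoforms differ in the extracellular part that sets which partner they bind. For each of these genes 8 of 9 HsTX1[R14A] mice exceeded the PBS median.

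Of the type B gamma genes 6 of 7 rose, against 15.5% of all genes. Pcdhgb7 was at 1.42, 4.75 and 11.1 CPM in the lowest, median and highest PBS mouse and at 3.44, 10.4 and 14.5 CPM in HsTX1[R14A] mice. It had the largest log2 fold change of all members, 1.10 ± 0.29 (adjusted p = 0.0176). Pcdhgb1 followed with 1.08 ± 0.33 (adjusted p = 0.0237). The highest of the type, Pcdhgb6, Pcdhgb8 and Pcdhgb2, had log2 fold changes of 0.77, 0.72 and 0.76 (adjusted p = 0.0414, 0.0413 and 0.0298). Of the 21 fits that left out 1 mouse, Pcdhgb6 and Pcdhgb8 each lost the call in 11 and Pcdhgb2 in 4. Pcdhgb4, the lowest gamma gene per kilobase, had a log2 fold change of 0.72 ± 0.28 and missed the threshold (adjusted p = 0.0537).

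The beta genes have no constant exons, and Pcdhb21 and Pcdhb22 overlap by 455 bases, so their values are uncertain. Log2 fold changes of the beta genes ran from 0.02 to 0.68. Pcdhb16 had the smallest adjusted p of all members (0.0150), with 4.66, 5.78 and 7.06 CPM in the lowest, median and highest PBS mouse, 5.92, 7.49 and 9.48 CPM in HsTX1[R14A] mice and a log2 fold change of 0.42 ± 0.09. All 9 HsTX1[R14A] mice exceeded the PBS median of Pcdhb16. Pcdhb12 was at 1.81, 2.62 and 4.06 CPM in PBS mice and 2.78, 3.85 and 5.51 CPM in HsTX1[R14A] mice (log2 fold change 0.54 ± 0.14, adjusted p = 0.0184), again with 9 of 9 above the PBS median. The largest beta value belonged to Pcdhb2, a sparse gene with a PBS median of 2.32 CPM (log2 fold change 0.68 ± 0.26, adjusted p = 0.0481). Its call was lost in 15 of the 21 fits that left out 1 mouse, and with the length slope in the model its log2 fold change was -0.03. The 3 highest beta genes were not called. Pcdhb22, Pcdhb7 and Pcdhb17 had log2 fold changes of 0.19 ± 0.08, 0.19 ± 0.10 and 0.28 ± 0.12 (adjusted p = 0.0649, 0.150 and 0.0754).

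Split at limits set after the data had been seen, the 14 beta genes with at least 90% of values near a whole number, which quantification hardly had to divide, included 9 of the 11 beta calls and had a median log2 fold change of 0.38. The 7 beta genes with fewer than 50% of such values included 2 calls and had a median of 0.19. Of the values of Pcdhb9, 9.52% were near a whole number, against 100% for Pcdhb16. With the length slope in the model, the log2 fold change of Pcdhb9 went from 0.31 to 0.28 ± 0.10 and that of Pcdhb16 from 0.42 to 0.24 ± 0.08. Both had an unadjusted p under 0.05, and neither passed the adjustment (adjusted p = 0.332 and 0.324). Pcdha1 was the third member under that unadjusted limit, at -0.86 ± 0.33 (adjusted p = 0.346), and it is a sparse gene with 0 counts in 1 or more mice.

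In the alternate alpha genes 3 of 12 (25%) rose, against 15.5% of all genes called higher. Pcdha7 was at 1.25, 3.45 and 5.49 CPM in the lowest, median and highest PBS mouse and at 4.20, 5.49 and 8.83 CPM in HsTX1[R14A] mice, all 9 above the PBS median (log2 fold change 0.59 ± 0.19, adjusted p = 0.0282). The neighbours Pcdha10 and Pcdha11 had log2 fold changes of 0.60 ± 0.20 and 0.55 ± 0.18 (adjusted p = 0.0325 and 0.0283). The highest alternate alpha genes were not called. Pcdha4 had a log2 fold change of -0.10 ± 0.11 (adjusted p = 0.484), and only 2.18% of the 31-base words of its transcript are found in no other gene, and an annotated readthrough transcript joins its first exon to the gamma constant exons. Pcdha12 and Pcdha5 had log2 fold changes of 0.20 ± 0.15 and 0.33 ± 0.15 (adjusted p = 0.292 and 0.0909).

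Differences between the sexes were not called for any member. By edgeR 0 of 57 members passed the threshold for male against female, 11 had an unadjusted p under 0.05, and all 11 were lower in males. Limma with voom and DESeq2 also called 0 members, with 16 and 14 at an unadjusted p under 0.05. Of all 16285 genes tested by edgeR, 0.0553% were called and 1763 had an unadjusted p under 0.05. The median log2 difference of male from female was -0.40 in gamma, -0.25 in beta and -0.03 in alpha. The fitted treatment difference had medians of 0.89 in females and 0.84 in males for gamma, 0.28 and 0.36 for beta and 0.33 and 0.30 for alpha. Fitted values were above 0 for 51 members in females and 55 in males. The interaction of treatment and sex was called for 0 members by edgeR, limma with voom and DESeq2, with 1, 0 and 1 members at an unadjusted p under 0.05, and for 0% of the 16303 genes. The treated females numbered 3.

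Genes around and behind the clusters were counted in the same fit, in which 15.5% of all genes were called higher and 16.1% lower. Of 12 non-clustered protocadherins, single genes outside the arrays, 3 rose (Pcdh1, Pcdh8 and Pcdh18) and 0 fell. Pcdh8, a synaptic protocadherin of active neurons, rose from a PBS median of 14.6 to 25.5 CPM (log2 fold change 0.83 ± 0.23, adjusted p = 0.0188), and Pcdh10, the highest, did not pass (0.14 ± 0.07, adjusted p = 0.150). Of the 11 measured neighbours on either side of and between the arrays, 0 rose and 2 fell, Hdac3 (a histone deacetylase, -0.17 ± 0.05, adjusted p = 0.0190) and Taf7 (-0.28, adjusted p = 0.0336). The highest neighbour, Zmat2, missed the threshold (-0.36 ± 0.14, adjusted p = 0.0548).

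Of 16 chromatin genes that act on the arrays, 4 rose and 2 fell. Of the cohesin ring, which loops enhancers to the chosen promoter, Smc1a was higher (0.49 ± 0.14, adjusted p = 0.0222) and Rad21 lower (-0.19 ± 0.05, adjusted p = 0.0197). Its member Smc3 (0.11) was not called. Stag2, another cohesin subunit, was also lower (-0.24), and Stag1 (0.05) was not called. The cohesin regulator Pds5b, the highest of the list, was at -0.01 ± 0.06 (adjusted p = 0.919). Silencing factors among those that rose were Dnmt1 (0.62), Setdb1 (0.28) and Smchd1 (0.25), and Dnmt3b (-0.17) was not called. Of 22 intracellular partners and processing enzymes, 7 rose and 4 fell. Of the actin-regulating WAVE complex, which protocadherin tails bind, Wasf1 (0.52 ± 0.15, adjusted p = 0.0224) and Cyfip2 (0.63 ± 0.20, adjusted p = 0.0254) rose. Abi1 (-0.27) and Brk1 (-0.46) fell, and Cyfip1 (0.09), Abi2 (0.08) and Nckap1 (0.0007) were not called. Pdcd10, which binds the constant tail, fell (-0.63 ± 0.16, adjusted p = 0.0169). With 15.5% of all genes higher and 16.1% lower, these counts are read against a table in which many genes moved. With the length slope as a covariate, 0 of these genes were called.

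Cell type markers moved as well. Among 5 markers each, 1 neuronal marker rose (Syt1, 0.31), 2 astrocyte markers fell (Gfap, -0.59, and Aqp4, -0.30), 2 oligodendrocyte markers fell (Mbp, -0.40, and Mog, -0.57) and 2 microglial markers fell (P2ry12, -0.65, and Aif1, -0.55), and 1 of 4 endothelial markers rose (Flt1, 0.64), against 15.5% of all genes called higher and 16.1% lower. Some markers that were not called had log2 fold changes opposite in sign to the called markers of their lists. They included Snap25 at -0.12 (neurons, adjusted p = 0.470), Aldh1l1 at 0.15 (astrocytes, adjusted p = 0.347), Mag at 0.08 (oligodendrocytes, adjusted p = 0.686) and Csf1r at 0.28 (microglia, adjusted p = 0.134). Summed CPM of the oligodendrocyte markers ran from 3460 to 4965 in PBS mice and from 2502 to 3894 in HsTX1[R14A] mice, that of the astrocyte markers from 827 to 1550 and from 863 to 1274, and that of the microglial markers from 230 to 311 and from 196 to 272. The endothelial markers summed to 30.4 to 74.8 and 39.6 to 84.6 CPM, and the 4 choroid plexus markers, of which 0 were called, to 66.8 to 1113 and 56.4 to 821 CPM. The liver transcript Alb ranged from 0.0710 to 19.3 CPM in PBS mice and from 0 to 9.03 CPM in HsTX1[R14A] mice and was the 1 marker at 0 in any library. The part of these shifts in the protocadherin differences was not tested.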

How the data were processed

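Whole-brain RNA of 21 SAMP8 mice was sequenced by the authors, aligned to GRCm38 with STAR and quantified with Salmon (nf-core/rnaseq 3.2). The library kit is named differently in the labels and in the study's methods. The values used are the estimated counts of 16318 genes that the authors deposited, without normalization. They were rounded. The table's CPM and count columns of other libraries (53 columns) and the authors' fold changes and FDR were not used.

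Libraries (14917174 to 47613792 counts) were filtered with filterByExpr for each model and scaled by TMM. The tests were those of edgeR 4.0.16 (glmQLFit, then glmQLFTest; R 4.3.3) on treatment with sex as covariate, and Benjamini-Hochberg adjustment ran over all genes. Standard errors are the log2 fold change over the root of F. Limma 3.58.1 with voom, DESeq2 1.42.0 and the other alternatives of the closing section were run alongside. Among 200 genes changed 2-fold in data simulated for HsTX1[R14A] against PBS, 179 of 200 were recovered with 7 false calls among 16268 genes. The simulated libraries held no length slope, so these values do not cover calls that change with it in the model. The 48 pairs of mice of the same group and sex had a mean chi-square per gene of 7.58 to 288, so none was a repeat. Transcripts came from GENCODE M21 (longest coding transcript of members, longest transcript for the length slope).

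Members, lists and alternatives were chosen with earlier results of these data known. Named were the 5 C-types and, of alternate alpha, beta, gamma A and gamma B genes, the 3 highest by mean CPM, the 2 called with the largest change and the 1 with the smallest adjusted p, with any member called against its cluster (0 were) or not tested. Of each related list the gene with the smallest p in each direction and the highest gene were named. Pcdhgb4, Pcdha1, Pcdha11, Pcdhb9 and the other genes of the lists were named after their values were seen. A chromatin gene of the list is not reported here.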

Additional observations from a re-analysis of the deposited data

Results flagged for a closer look

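In the 9 HsTX1[R14A] mice, each named member's CPM, each cluster sum and each C-type isoform's share of its cluster was searched for a mouse standing apart (a gap over range above Dixon's 95% critical value), 35 sets of values in all, and 1 was found, where chance gives about 1 in 20. Mouse 93 had a Pcdhgc4 share of 45.8% of the gamma counts. The nearest other HsTX1[R14A] mouse was at 26.6%, so the gap was 0.625 of the range. The library of mouse 93 also had the lowest length slope of its group (-0.142) and the lowest gamma sum (307 CPM). Without mouse 93, gamma, beta and alpha calls were 21, 16 and 4.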

How the results depend on the processing

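Calls in the alpha, beta and gamma clusters (4, 11 and 19) were 4, 14 and 21 with DESeq2, 4, 11 and 20 with limma and voom or with RLE scaling, 4, 11 and 19 without a filter and 4, 11 and 21 with at least 10 counts in every mouse. They fell to 2, 4 and 13 without the sex term, 1, 8 and 17 (16 higher and 1 lower) with the length and GC trend removed, 0, 3 and 8 with the name form as a covariate, and 0, 0 and 0 with the length slope as a covariate or within either name form. The 2 name forms leave 15 and 6 mice. Leaving out 1 mouse gave 0 to 4, 3 to 16 and 10 to 21. Sex and interaction calls stayed at 0 in all alternatives run. The log2 differences of the alpha, beta and gamma sums kept their sign in the alternatives run for them. They were 0.0822, 0.0566 and 0.0526 with the length slope as a covariate. With RLE scaling, each name form alone, 1 mouse left out, the name form as a covariate or no sex term they moved by less than 1 SD of the PBS mice, with the gamma value at its lowest (0.217) within the SAMP form. The 3 covariate settings for the sums were added after the data had been seen.

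With the length slope as a covariate, 12 of the 27 named members changed sign, none past the threshold: Pcdhac1 (-0.119), Pcdhgc3 (-0.0855), Pcdhgc5 (-0.0208), Pcdha4 (0.0129), Pcdhb17 (-0.0492), Pcdhb2 (-0.0320), Pcdhga11 (-0.0444), Pcdhga2 (-0.0196), Pcdhgb6 (-0.0807), Pcdhgb8 (-0.0889), Pcdhgb2 (-0.0362) and Pcdhgb1 (-0.0107). Within the SAMP form, Pcdha4 (0.0892), Pcdha12 (-0.0768) and Pcdhb7 (-0.0314) did. The cause was not tested. No paired analysis was possible because each number in the labels belongs to 1 mouse.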
